A study of Mus musculus with 7 samples.

Results

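The protein genes of the cytosolic ribosome were followed through the spleen of endotoxin-treated mice. They were chosen by name, as the entries of the expression table whose symbol is Rpl or Rps with a number (and an optional a or x), Rplp0 to Rplp2 or Rpsa, and whose mean over the 7 libraries reached 10 FPKM (fragments counted per length of transcript and per sequencing depth of the library). The pattern found 76 of the 17920 genes in the table, 46 of the large and 30 of the small subunit, and the minimum of 10 removed none. The lowest member, Rps6, had a mean of 49.5 FPKM, so no gene lay near that limit. The name pattern leaves out a few core ribosomal protein genes with other symbols, among them Rps3a1 and Fau.

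The libraries were made from spleen RNA of C57BL/6 mice aged 8 weeks, each given lipopolysaccharide (LPS, a bacterial cell wall component that sets off inflammation) at 20 mg/kg into the peritoneum. The mice were wild type or lacked GdX (UBL4A), a small ubiquitin-like protein encoded by the X-linked gene Ubl4a, with no restriction to a cell type stated; the labels write the genotype as GdX-/- and as GdX-/Y. Spleens were taken 90 min after the injection from 2 wild-type and 2 GdX-deficient mice, and 6 h after it from 2 wild-type and 1 GdX-deficient mouse. Every library comes from an LPS-treated mouse, and no untreated group is analysed here. The sample source is given as splenocytes, but the protocol describes spleen crushed whole. RNA was selected by oligo-dT or by removal of ribosomal RNA (the protocol names both) and sequenced on the BGISEQ-500. Depth estimated from the steps of the low FPKM values was 19400000 to 21500000 fragments per library.

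The gene-level value of the targeted gene did not separate the genotypes at 90 min. Ubl4a stood at 5.62 and 7.5 FPKM in the wild-type libraries and at 4.03 and 5.69 in the GdX-deficient ones at 90 min, and at 11.88 and 14.01 against 10.56 at 6 h. The deleted part of the gene is not given in the sources used here, so these values do not check the labels. Libraries labelled GdX-deficient are therefore called KO-labelled, and every genotype difference is KO-labelled minus wild type.

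Ribosomal proteins assemble with ribosomal RNA in the nucleolus into a small subunit, which reads the mRNA, and a large subunit, which joins amino acids. Their genes are among the most highly expressed of almost every cell, and most of their products are needed in equal numbers. Most of their mRNAs begin with a C followed by a run of pyrimidines, the 5′ terminal oligopyrimidine (TOP) motif, through which mTOR signalling and the protein LARP1 control translation. In immune cells, activation raises ribosome production, which starts from nucleolar RNA polymerase I and its processing factors.

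Annotated start sites were searched for this motif, which most of the windows did not hold but which was more frequent than among all genes. RefSeq promoter windows (GRCm38.p6) were found for 56 of the 76 genes, 66 windows in all, each running from 250 bases before the annotated start to 50 bases after it. A C at the first transcribed base followed by at least 4 C or T was present in 13 of the 66 windows (19.7%), against 2.51% of 32851 windows of all genes. An unbroken C/T run of at least 5 bases that includes the first base was present in 30.3% of the windows and in 10.1% of all. The letters CCGGAA, searched on both strands of the whole window, were present in 48.5% against 14.9%, and TATAAA, searched likewise, in 9.09% against 13.6%. These are matches of letters to annotated starts and not mapped start sites. The 8 windows printed here run from 30 bases before to the 20th transcribed base, and the capitals mark the C/T run over the first base. They are shown because the first 6 carry the TOP-type start, and because Rpl7a (a longer run that does not put a C at the first base) and Rps2 (no run at the annotated start) are genes whose levels departed from the other members. The single window listed for Rps2 lies inside the annotated span of the gene, so it says nothing of a start elsewhere in it.
Rpl14, chr9:120571487-120571536, plus strand: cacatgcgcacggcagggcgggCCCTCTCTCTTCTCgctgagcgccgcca
Rpl38, chr11:114668550-114668599, plus strand: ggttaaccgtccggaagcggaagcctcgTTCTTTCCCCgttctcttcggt
Rplp2, chr7:141447621-141447670, plus strand: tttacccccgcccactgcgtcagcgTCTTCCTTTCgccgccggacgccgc
Rps6, chr4:86857348-86857397, minus strand: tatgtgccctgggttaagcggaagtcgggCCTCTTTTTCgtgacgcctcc
Rps15a, chr7:118116128-118116177, minus strand: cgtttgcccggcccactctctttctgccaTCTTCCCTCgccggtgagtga
Rps27, chr3:90213629-90213678, minus strand: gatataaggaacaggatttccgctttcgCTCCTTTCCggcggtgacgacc
Rpl7a, chr2:26910777-26910826, plus strand: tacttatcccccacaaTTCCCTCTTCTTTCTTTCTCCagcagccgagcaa
Rps2, chr17:24720033-24720082, plus strand: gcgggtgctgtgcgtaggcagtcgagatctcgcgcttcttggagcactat

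The genes took up a large part of all FPKM, and their share was highest in the first wild-type library of each time. Their summed FPKM made 24.1% and 20.2% of the library in the wild-type pair at 90 min, 16.9% and 19.1% in the KO-labelled pair, 32.4% and 23.3% in the wild-type pair at 6 h and 19.1% in the KO-labelled library at 6 h. The KO-labelled libraries were thus below the wild-type libraries of the same time in every case. Globin transcripts, which come from red cells, held 22.3% and 19.2%, 30.9% and 23.5%, 9.46% and 7.73%, and 13.6% of the FPKM in the same order of libraries. With globins taken out of the sum the member shares became 31.1% and 24.97%, 24.5% and 24.9%, 35.8% and 25.3%, and 22.1%. At 90 min the second wild-type library and the KO-labelled pair then lay within a narrow band. The ratio of large-subunit to small-subunit FPKM moved little, from 1.25 to 1.41.

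The members differed in level by 119-fold between the highest and the lowest mean. In all, 66 had a mean of at least 1000 FPKM, the median of the means was 2046 FPKM, and 64 were among the 100 highest genes of the table. Rplp1, a protein of the stalk that recruits elongation factors, was highest with a mean of 5911 FPKM, followed by the small-subunit proteins Rps9 with 4140.1 and Rps12 with 3897. At the other end stood Rps6, the small-subunit protein phosphorylated by S6 kinases, with 49.5, Rpl23 with 107 and Rps15a with 215 FPKM. Rps6 and Rpl23 have other entries of the same protein in the table, and these families had means of 2789 and 1511 FPKM. The transcript matched to Rps15a has 5179 bases, the longest of the members, and FPKM is counted per length. The low end of this span is therefore not read as scarce mRNA of these proteins. The genes lay on 19 chromosomes, 14 of them on chromosome 7 and 4 on the X chromosome, which also carries Ubl4a.

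**Figure D1:**
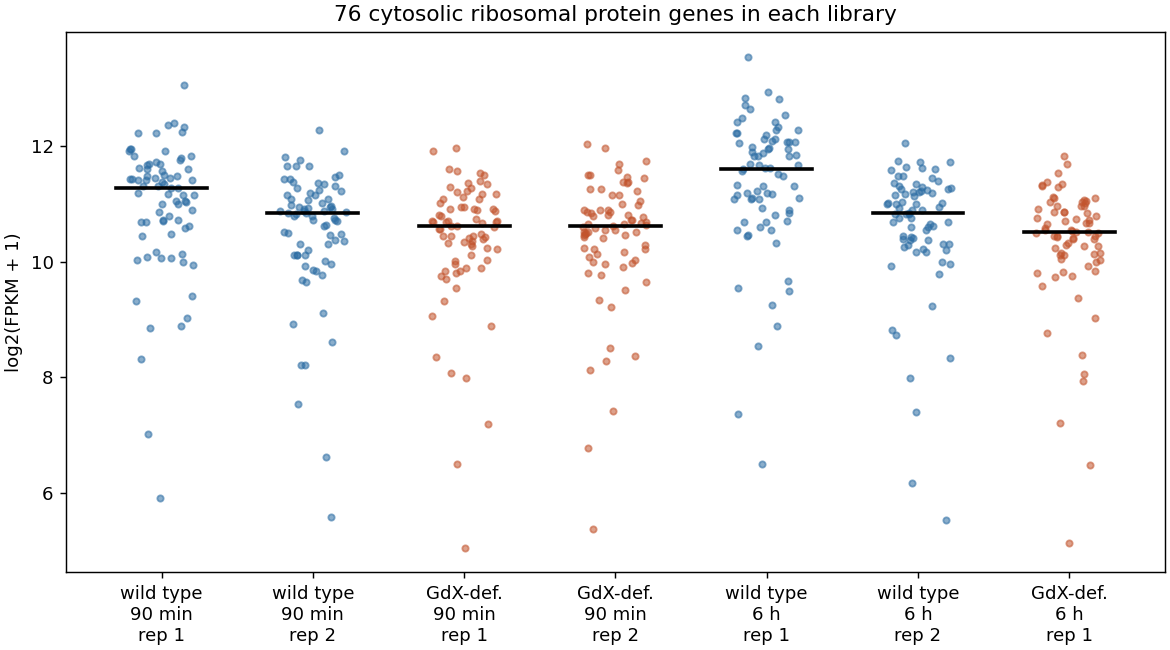
Level of each of the 76 ribosomal protein genes (points) in each of the 7 libraries, as log2(FPKM + 1), with the median as a black bar. The first wild-type replicate has the higher median of its pair at both times, and the lowest 3 medians are those of the KO-labelled libraries (labelled GdX-def.), at 1453 to 1565 FPKM.

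Median member levels showed how unequal the wild-type replicates were. The median member stood at 2484 and 1827 FPKM in wild type at 90 min, 1565 and 1561 in the KO-labelled pair, 3123 and 1826 in wild type at 6 h and 1453 in the KO-labelled library at 6 h. In both wild-type groups the first replicate was the higher, and the second replicates of both times were alike. On the log2(FPKM + 1) scale the first exceeded the second wild-type replicate by a median of 0.42 at 90 min (75 of 76 members higher) and by 0.72 at 6 h (73 of 76). The KO-labelled pair differed by -0.06 (28 higher, 48 lower in the first). At 6 h, 22 members differed at least 2-fold between the wild-type replicates, against 8.76% of all tested genes.

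This replicate difference ran with transcript length. Members have short transcripts, with a median of 814.5 bases (quartiles 588 and 1071, range 345 to 5179) against 2787 bases over tested genes. Among the 743 other tested genes with lengths between those quartiles, the first wild-type replicate was higher by a median of 0.28 at 90 min and 0.49 at 6 h. Among 5017 other genes longer than 3000 bases it was lower, by -0.24 and -0.51. Across 11231 tested genes of these same libraries the rank correlation of the replicate difference with length was -0.45 at 90 min, -0.59 at 6 h and -0.16 in the KO-labelled pair, given as a description since genes are not independent. Both first wild-type replicates thus stood high for short transcripts, so the main genotype values of the members are also given without them. Expressed as a deviation from each gene's mean over 7 libraries, members stood at 0.33 and -0.10 in wild type at 90 min, -0.29 and -0.24 in the KO-labelled pair, 0.71 and -0.07 in wild type at 6 h and -0.34 in the KO-labelled library at 6 h. The other short genes stood at 0.22, -0.07, -0.28, -0.19, 0.38, -0.09 and -0.04 in the same order. At 90 min members and other short genes were close in every library. At 6 h the members stood further out than short genes in the first wild-type and in the KO-labelled library.

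**Figure D2:**
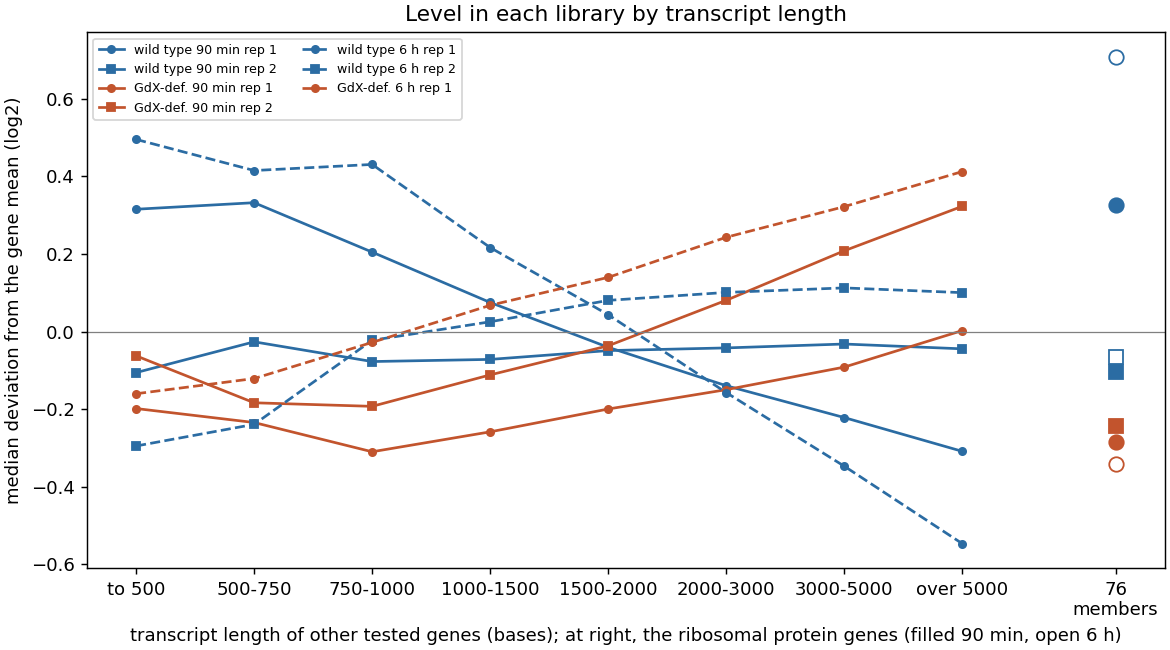
Median deviation from the gene mean (log2, y axis) of other tested genes in bins of transcript length (bases, x axis), 1 line per library, with the median of the 76 ribosomal protein genes at the right (filled symbols 90 min, open symbols 6 h). The lines of both first wild-type replicates fall from short to long genes, and the member medians, from -0.34 to 0.71, stand highest in those libraries.

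The genotype comparison at 90 min asks whether spleens without GdX differ early after LPS. Of the 76 members, 75 were lower on average in the KO-labelled pair, with a median log2 difference of -0.38 (quartiles -0.47 and -0.27), and none passed the test. The median over all tested genes was 0.07, 43.5% of them were below 0, and the other short genes had a median of -0.34 with 82.0% below 0. The test was limma on log2(FPKM + 1) over 11378 genes with a mean of at least 1 FPKM, with an adjusted p (Benjamini-Hochberg) under 0.05 as the threshold. It called 0 of 76 members, with 0.0176% of all tested genes called, and 0 members had an unadjusted p under 0.05, against 7.58% of all genes (4.41% lower and 3.16% higher). Both KO-labelled libraries lay below both wild-type libraries for 54 of the 76 members, which was the case for 23.4% of all tested genes. Without the first wild-type replicates the median was -0.16, with 54 members below the remaining wild-type library (35.4% of all genes) and 5 above it (28.9%). After quantile normalization the median was -0.08 (55 of 76 below 0), and with a trend on length and GC content removed from each library it was -0.10 (51 of 76).

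Rps26, which lines the mRNA exit channel, had the smallest p among the members at 90 min. It stood at 2132.5 and 1685.5 FPKM in wild type and at 1308 and 1200.0 in the KO-labelled pair, a log2 difference of -0.60 (SE 0.33, adjusted p = 0.621 by limma). The pairs did not overlap, and the unadjusted p was 0.102 by limma. Rpl24, Rps15a, Rps6 and Rpl7 came next, with log2 differences of -0.51, -0.63, -0.53 and -0.57 and adjusted p of 0.630 to 0.634 by limma. Without the first wild-type replicates these 5 differences were -0.43 for Rps26 and -0.32, -0.24, -0.37 and -0.27 for the other 4 in turn. Rplp1 had the lowest difference, -0.70 (SE 0.52, adjusted p = 0.652 by limma): it read 8512 and 4985 FPKM in wild type and 4016 and 4009.6 in the KO-labelled pair. Its KO-labelled values were nearly equal, its wild-type values lay far apart, and without the first wild-type replicates it was at -0.31. Rpl36, a large-subunit protein, was the single member not below 0. It stood at 985.5 and 819 FPKM in wild type and at 912.5 and 889 in the KO-labelled pair, which fell between the wild-type values.

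Among members fixed by role, the differences at 90 min covered the same range. The stalk proteins Rplp0 and Rplp2 differed by -0.42 and -0.35, and Rpsa, a small-subunit protein also known as a laminin receptor, by -0.58. Rpl5 and Rpl11, which with 5S rRNA form a particle that can bind the p53 regulator MDM2, differed by -0.19 and -0.38. Rps19, the gene most often mutated in Diamond-Blackfan anaemia, differed by -0.07, and Rps3, at the mRNA entry site, by -0.15. Rpl22, which is needed for αβ T cell development, differed by -0.37, and Rpl38, linked to the translation of Hox mRNAs, by -0.65. None of these passed the test, and their adjusted p by limma lay between 0.64 and 0.94. These differences were nearer to 0 without the first wild-type replicates: Rplp0 and Rplp2 were at -0.32 and -0.22, Rpsa at -0.29, Rpl5 and Rpl11 at -0.06 and -0.14, Rps3 at -0.0061, Rpl22 at -0.04 and Rpl38 at -0.19. Rps19 changed sign, to 0.04.

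With both times in 1 model (3 KO-labelled against 4 wild-type libraries, time as a covariate), the members moved by a median of -0.52 (75 of 76 below 0), against 0.16 for all tested genes (37.8% below 0) and -0.28 for the other short genes. No member passed the threshold, with 0.0439% of all genes called (0.00879% lower and 0.0352% higher). At an unadjusted p under 0.05, 19 members were lower and 0 higher, against 9.19% and 17.8% of all genes (27.0% in either direction). The KO-labelled libraries lay below the wild-type libraries of their own time for 50 members, against 13.0% of all genes. The count of 19 moved widely when libraries were left out, and the share of all genes at this p is not given here for those fits. It is therefore not read as a result about the members. With 1 library left out the member median ranged from -0.65 to -0.35. Without the first wild-type replicates the median was -0.20 with 69 of 76 below 0. The KO-labelled libraries then lay below the remaining wild-type library of their time for 50 members (21.5% of all genes) and above it for 2 (23.0%). The median was -0.12 with 59 below 0 after quantile normalization, and -0.26 with 70 below 0 with the length and GC trend removed.

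Rpl18, a protein on the surface of the large subunit, had the smallest p of this model. It stood at 3961 and 2776 FPKM in wild type and 2314 and 2027 in the KO-labelled pair at 90 min, and at 6364 and 3072 against 1996 at 6 h. The log2 difference was -0.83 (SE 0.31, adjusted p = 0.136 by limma), and at both times the KO-labelled values were the lowest. Rps6, Rpl29, Rpl27 and Rps26 followed with log2 differences of -0.67, -0.58, -0.64 and -0.62 and adjusted p of 0.142 to 0.146 by limma. Without the first wild-type replicates Rpl18 was at -0.47 and these 4 at -0.38, -0.45, -0.42 and -0.40. Rps27, a zinc finger protein of the small subunit, was the single member above 0, at 0.01 (SE 0.28, adjusted p = 0.980 by limma) and at 0.31 without the first wild-type replicates.

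At 6 h a single KO-labelled library was set against 2 wild-type libraries, so that the values describe these libraries and carry no replicate check. Members had a median log2 difference of -0.69, 75 of 76 were below 0, and the medians were 0.32 for all tested genes (33.8% below 0) and -0.20 for the other short genes. The KO-labelled library lay below both wild-type libraries for 69 members, against 25.3% of all tested genes. The 7 exceptions were Rpl23, Rpl37, Rpl37a, Rpl39, Rps21, Rps27 and Rps28. Rpl23 and Rpl37 have related entries elsewhere in the table. With these summed, the L23 family stood at 1162 FPKM against 2370 and 1344 in wild type, and the L37 family at 608 against 1145 and 717. Both families thus lay below both wild-type libraries. At least 2-fold below the wild-type mean and outside both libraries were 7 members (5.47% of all tested genes were so) and 0 members were 2-fold above (16.5%). They were Rps27a, Rpl38, Rpl18, Rpl35a, Rpl41, Rps2 and Rps12, at -1.20, -1.19, -1.15, -1.10, -1.03, -1.02 and -1.01.

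The first wild-type library weighed on this count. Rps27a, made as a fusion with ubiquitin, stood at 4956 and 1898 FPKM in wild type and at 1337 in the KO-labelled library. Rpl38 stood at 5737 and 2039 against 1501, and Rpl41, the smallest ribosomal protein, at 7304 and 2476 against 2086. In each case the KO-labelled value was below the second wild-type library, and the first wild-type library was over 2 times as high as the second. Without both first wild-type replicates the median was -0.33 (69 of 76 below 0). Then 69 members lay below the remaining wild-type library (38.8% of all genes) and 7 lay above it (61.1%). Past 2-fold were 0 members, while 5.41% of all genes were 2-fold lower and 11.2% higher. Rps27a was then at -0.50, Rpl38 at -0.44 and Rpl18 at -0.62. After quantile normalization the median was -0.21 (62 below 0), and with the length and GC trend removed it was -0.52 (74 below 0). A contrast in the fit of all 4 groups, which assumes that the lone library varies like the others, called 0 of 76 members (smallest adjusted p = 0.135 by limma) and 3.96% of all genes. With the length and GC trend removed it called 4 members, all lower (smallest adjusted p = 0.0355), and 9.95% of all genes. Without the second wild-type library at 6 h it called 36, all lower (0.00301), and 26.7% of all genes, and without the first 0 (0.281) and 6.16%. Rps27 and Rpl39 had the highest differences, 0.16 and -0.21, which were 0.50 and 0.18 without the first wild-type replicate and -0.17 and -0.59 without the second.

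**Figure D3:**
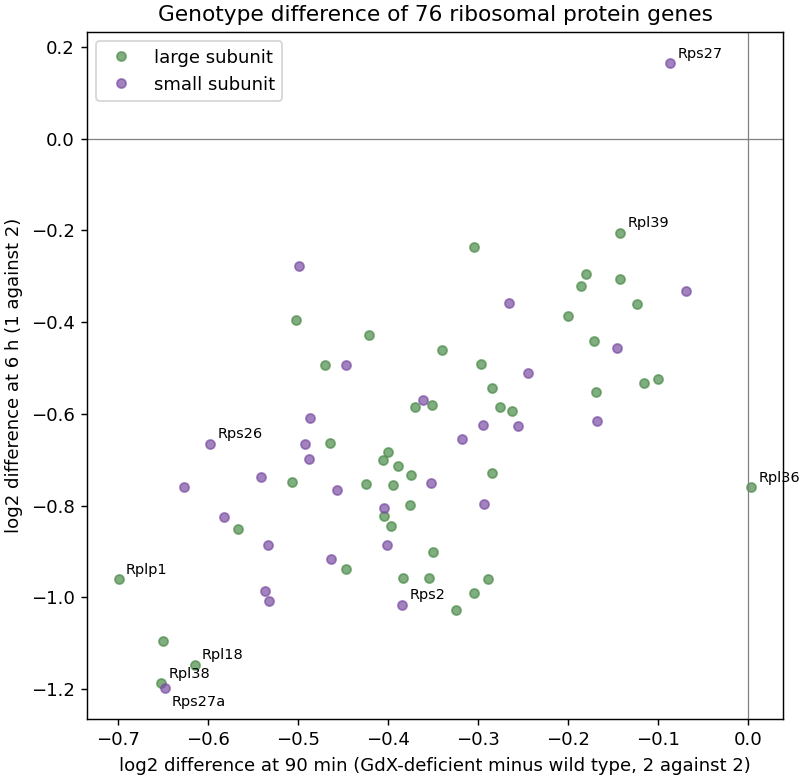
Log2 difference (KO-labelled, here GdX-deficient, minus wild type) of each ribosomal protein gene at 90 min (x axis, 2 against 2 libraries) and at 6 h (y axis, 1 against 2), coloured by subunit. Nearly all points lie below 0 on both axes; Rpl36 lies at 0.00 at 90 min and Rps27 at 0.16 at 6 h.

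The subunits did not separate. The median differences at 90 min were -0.35 for the large and -0.43 for the small subunit, and -0.69 and -0.68 at 6 h. Fewer cells that hold many ribosomes and less ribosomal protein mRNA per cell cannot be told apart in RNA of whole spleen. Whether either lies behind the lower values was not tested, nor was the difference between libraries that ran with transcript length. Other short genes had medians of -0.34 at 90 min and -0.20 at 6 h, beside -0.38 and -0.69 for the members.

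The effect of time was read in wild-type mice as 6 h minus 90 min, with 2 libraries on each side. Most members were somewhat higher at 6 h, with a median log2 difference of 0.23 (14 of 76 below 0), against 0.05 for all tested genes (46.9% below 0) and 0.09 for the other short genes, and no member passed the threshold while 10.7% of all genes did. At an unadjusted p under 0.05, 3 members were higher and 0 lower (13.8% and 14.9% of all genes). Both 6 h libraries were above both 90 min libraries for 12 members and below them for 0, against 30.3% and 27.6% of all genes. Without the first replicates the median was 0.11 with 29 of 76 below 0. It was -0.18 without the first and 0.61 without the second wild-type library at 6 h, and 0.44 without the first and 0.0025 (38 of 76 below 0) without the second at 90 min. After quantile normalization it was 0.08, against 0.07 for all tested genes.

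Rps2, a small-subunit protein near the mRNA entry channel, had the smallest p among members for time. It stood at 2098 and 1991 FPKM at 90 min (mean 2044 ± 76, SD, n = 2) and at 4782 and 3406 at 6 h (mean 4094 ± 972.5, SD, n = 2). The difference was 0.98 (SE 0.32, adjusted p = 0.0839 by limma), and the 6 h values lay above both 90 min values. With the replicate number as a block it passed the threshold (adjusted p = 0.0403 by limma), while 20.6% of all genes were called. The libraries that share a number have no stated common origin. In KO-labelled mice Rps2 went from 1674.5 and 1464 FPKM to 1994.5, a difference of 0.35.

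Rpl36 and Rpl14, large-subunit proteins, were the next 2. Rpl36 stood at the 985.5 and 819 FPKM given above at 90 min and at 2183 and 1252 at 6 h, a difference of 0.88 (SE 0.33, adjusted p = 0.120 by limma). Rpl14 stood at 1019.8 and 998 FPKM at 90 min and 2174 and 1327 at 6 h, a difference of 0.75 (SE 0.32, adjusted p = 0.155 by limma). For both genes the 6 h libraries stood above the 90 min ones but lay wide apart. Rpl7a, which binds rRNA in the large subunit, had close replicates: 1068 and 1106 FPKM at 90 min (mean 1087 ± 26.9, SD, n = 2) and 1649 and 1615 at 6 h (mean 1632 ± 24.2, SD, n = 2). Its difference was 0.59 (SE 0.27, adjusted p = 0.193 by limma), since the fit uses a spread shared with other genes and groups. With the length and GC trend removed, Rps2, Rpl36 and Rpl14 passed the threshold, at 0.95, 0.99 and 0.71, while 2604 genes were called in all in place of 1218.

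Rps27 went the other way. Its FPKM was 5151 and 3585 at 90 min and 3753 and 2346 at 6 h in wild type, a difference of -0.53 (SE 0.38, adjusted p = 0.390 by limma), and the pairs overlapped. With 1 library left out the difference ranged from -0.87 to -0.20. After quantile normalization Rps27 passed the threshold (adjusted p = 0.0185 by limma), while 12.0% of all genes were called. Rpl37a, Rps4x and Rpl39 were among the other lower members with the smallest p, at -0.33, -0.17 and -0.14. Each changed sign with 1 library left out, with ranges of -0.99 to 0.33, -0.42 to 0.086 and -0.53 to 0.25 in turn. Rps4x, Rpl10 and Rpl39 are X-linked, and Rpl10, which joins the large subunit late in its assembly, differed by 0.08, or by -0.11 without the second wild-type library at 90 min.

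In KO-labelled mice the time comparison rests on 1 library at 6 h against 2 at 90 min and shares the 90 min KO-labelled libraries with the genotype comparison at 90 min. The members had a median of -0.09 (59 of 76 below 0), against 0.25 for all tested genes (24.9% below 0) and 0.21 for the other short genes. On the TPM scale, which rescales each library to the same sum, the direction turned: the median was 0.11 with 15 of 76 below 0, against 0.45 for all tested genes. With the length and GC trend removed it was -0.23 with 74 below 0, against 0.03, and after quantile normalization -0.03 with 42 below 0, against 0.02. The 6 h library was below both 90 min libraries for 48 members (15.8% of all genes) and above them for 11 (56.8%). None was 2-fold apart, while 4.09% of all genes were 2-fold higher and 1.64% lower. Rps2, Rpl3 and Rpl7a were highest at 0.35, 0.20 and 0.17, and Rps14, Rpl13a and Rpl35a were lowest at -0.39, -0.31 and -0.30. Rpl3 lies close to the peptidyl transferase centre, and Rpl13a is known to leave the ribosome when phosphorylated after interferon gamma.

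In the model of time with genotype as a covariate (3 libraries at 6 h against 4 at 90 min), the member median was 0.10 (19 of 76 below 0) against 0.14 for all tested genes (38.6% below 0). The sign turned when some wild-type libraries were left out: the median was -0.13 (58 below 0) without the first at 6 h, -0.05 (48 below 0) without the second at 90 min and -0.02 (42 below 0) without both first replicates. No member passed, with 5.44% of all genes called (2.65% lower and 2.79% higher). At an unadjusted p under 0.05, 1 member was higher, against 26.6% of all genes in either direction and 16.8% higher. Rps2 was again first, at 0.73 (SE 0.26, adjusted p = 0.109 by limma). At 6 h the libraries were higher within both genotypes for 8 members (24.0% of all genes) and lower for 0 (9.6%). The 8 were Rpl14, Rpl29, Rpl3, Rpl36, Rpl6, Rpl7a, Rplp0 and Rps2. The test of whether the time difference depended on genotype, an interaction in the fit of 4 groups, called 0 members and 8 of the 11378 tested genes, and the smallest adjusted p of a member was 0.729 by limma.

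Set against the median member of the same library, a few genes changed their rank. The median SD of this relative level over the 7 libraries was 0.18 on the log2 scale, and Rps27 (0.46), Rps2 (0.41) and Rpl7a (0.34) had the largest. Rps27 stood above the member median by 1.05 and 0.97 in wild type at 90 min, 1.31 and 1.43 in the KO-labelled pair, 0.27 and 0.36 in wild type at 6 h and 1.19 in the KO-labelled library at 6 h. The wild-type pair at 6 h was the lowest for Rps27, below all 5 other libraries. Rps2 stood at -0.24 and 0.12 in wild type at 90 min, 0.10 and -0.09 in the KO-labelled pair, 0.61 and 0.90 in wild type at 6 h and 0.46 in the KO-labelled library at 6 h. All 3 libraries at 6 h were above all 4 at 90 min for Rps2. Rpl7a followed the order of the replicates instead, at -1.22 and -0.72, -0.65 and -0.63, -0.92 and -0.18, and -0.37. These genes were picked for their spread in these libraries, so the relative levels are given without a test.

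**Figure D4:**
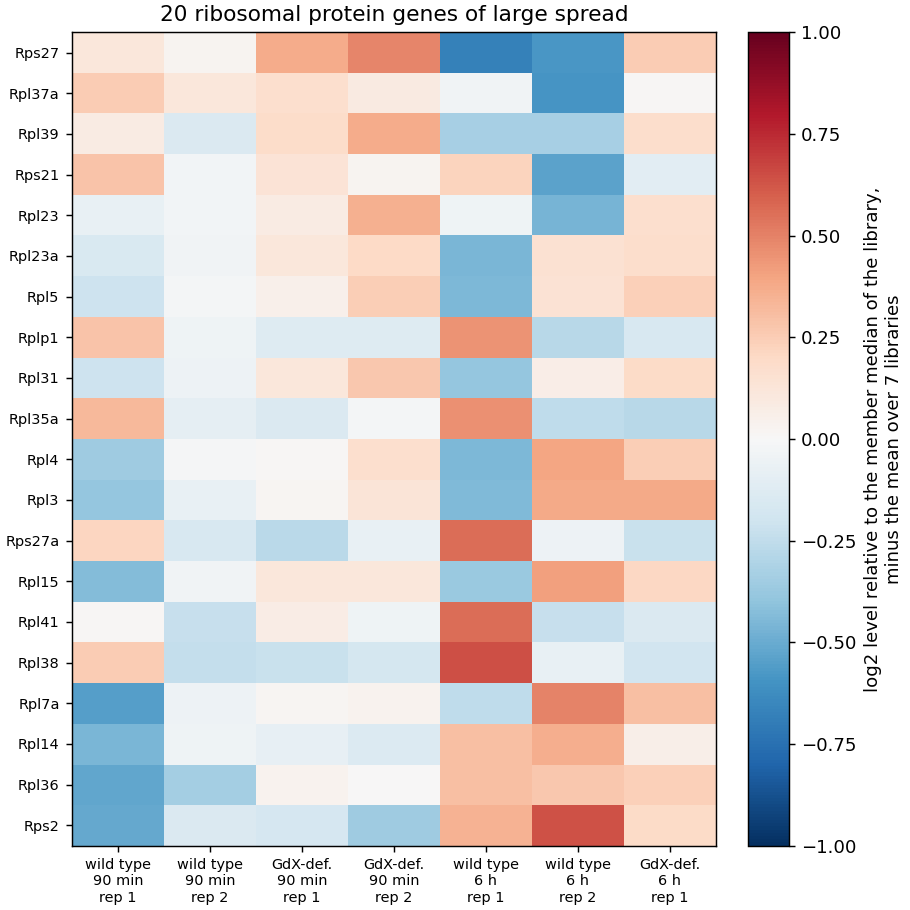
Relative level of 20 ribosomal protein genes of large spread, as log2 level minus the member median of the library and minus the mean over the 7 libraries (red higher, blue lower). Rps27 is low in both wild-type libraries at 6 h, and Rps2 is high there, while many other rows split by replicate.

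Some members have near-identical or closely related entries elsewhere in the table, and their own level then understates the protein's total mRNA. Another entry with the same orthology was listed for 26 members, 42 such entries in all, of which 11 had a mean of at least 10 FPKM. An entry annotated as ribosomal protein S6 (LOC105244208) had a mean of 2739 FPKM, so that Rps6 held 1.78% of the pair. A pair of entries for L23 (LOC100862455 and LOC100044627) had equal values in every library, with a mean of 1404 FPKM, and Rpl23 held 7.05% of its family with such equal entries counted once. Gm10045 had 1221 FPKM beside Rpl21, which held 20.9%. Rpl22, Rpl31, Rpl36a and Rpl37 held 50.8%, 52.4%, 66.6% and 67.5% of their families, in the case of Rpl22 beside its paralog Rpl22l1. How reads were shared among these copies is not given in the sources used here, so the levels of these 7 genes are uncertain. For the S6 pair summed, the FPKM was 3114 and 2496 in wild type and 2056 and 2200.5 in the KO-labelled pair at 90 min, and 4517 and 3042 against 2097 at 6 h. The summed differences, -0.39 and -0.82, had the sign of those of Rps6 itself, -0.53 and -0.89. For the L23 family summed they were -0.48 and -0.62, further from 0 than those of Rpl23 itself, -0.18 and -0.30. Rps27rt was listed at 12.2, 11.9 and 11.8 FPKM in 3 wild-type libraries and at 0 in the second wild-type library at 6 h and in all 3 KO-labelled libraries.

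Other genes of ribosome production and use were read from the same fits. The 38 ribosome biogenesis genes, which make and process ribosomal RNA, had larger median differences than the members. In wild type 15 of 38 were higher at 6 h by the test and 0 lower (4.39% and 6.32% of all genes), with a median of 1.07. Their median transcript length was 2857.5 bases. Polr1a, the largest subunit of RNA polymerase I, stood at 6.73 and 9.84 FPKM at 90 min and 26.8 and 41.5 at 6 h, a difference of 1.91 (SE 0.32, adjusted p = 0.00875 by limma). Ncl, nucleolin, stood at 185.5 and 182 and then at 608 and 666 FPKM, a difference of 1.79 (SE 0.32, adjusted p = 0.0113 by limma). For both genes the 6 h pair was clear of the 90 min pair. In the KO-labelled library at 6 h Polr1a was at 13.1 and Ncl at 143 FPKM, below both wild-type libraries. Of the 38 genes, 34 were at least 2-fold lower there and 0 higher (5.47% and 16.5% of all genes), with a median of -1.46. Without the first wild-type replicates 34 were at least 2-fold lower (5.41% of all genes), with a median of -1.53. All 38 were below 0 in the genotype model with time as a covariate, with a median of -0.92 and 0 called. Fbl, the rRNA methyltransferase fibrillarin, had the smallest p of them, at -1.35 (SE 0.30, adjusted p = 0.101 by limma).

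In the lists that follow, the counts for time in wild type stand beside 4.39% of all tested genes called higher and 6.32% called lower. The 77 mitochondrial ribosomal protein genes were higher at 6 h in wild type for 11 and lower for 0, with a median of 0.67. Mrpl2 rose by 1.68 (SE 0.29, adjusted p = 0.0104 by limma), from 36.9 and 30.5 to 141 and 85.4 FPKM. Among 21 translation factor genes with TOP-type mRNAs, 1 passed, Hnrnpa1 (an RNA-binding protein), at 1.16 (SE 0.28, adjusted p = 0.0310 by limma), a share near that of all genes, and the median was 0.41. Of 69 subunits of oxidative phosphorylation, whose transcripts are as short as those of the members with a median of 704 bases, 5 were higher and 0 lower, with a median of 0.26. Their genotype median at 6 h was -0.47, and -0.16 without the first wild-type replicate. That of the mitochondrial ribosomal proteins was -0.69, and -0.49 without it. Of 16 genes of mTOR and TOP mRNA control 3 were higher: Eif4ebp1, a brake on cap-dependent translation, by 2.90 (adjusted p = 0.000582), Sesn2 by 2.27 (adjusted p = 0.0350) and Larp1 by 1.18 (adjusted p = 0.0493), all by limma. Among 6 genes of ribosomal stress sensing 1 was higher, the p53 target Bbc3, by 1.57 (SE 0.31, adjusted p = 0.0166 by limma). Cdkn1a, another p53 target of that list, was at -1.09 (SE 0.31, adjusted p = 0.0547 by limma) and fell in the model of time with genotype as a covariate, at -1.09 (SE 0.24, adjusted p = 0.0316 by limma). The 8 tested ribosomal protein paralogs and fusion partners outside the name pattern had medians of -0.56 at 90 min and -0.86 at 6 h for genotype, with all 8 below 0 at both times. Without the first wild-type replicates these medians were -0.32 (8 below 0) and -0.38 (6 below 0).

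**Figure D5:**
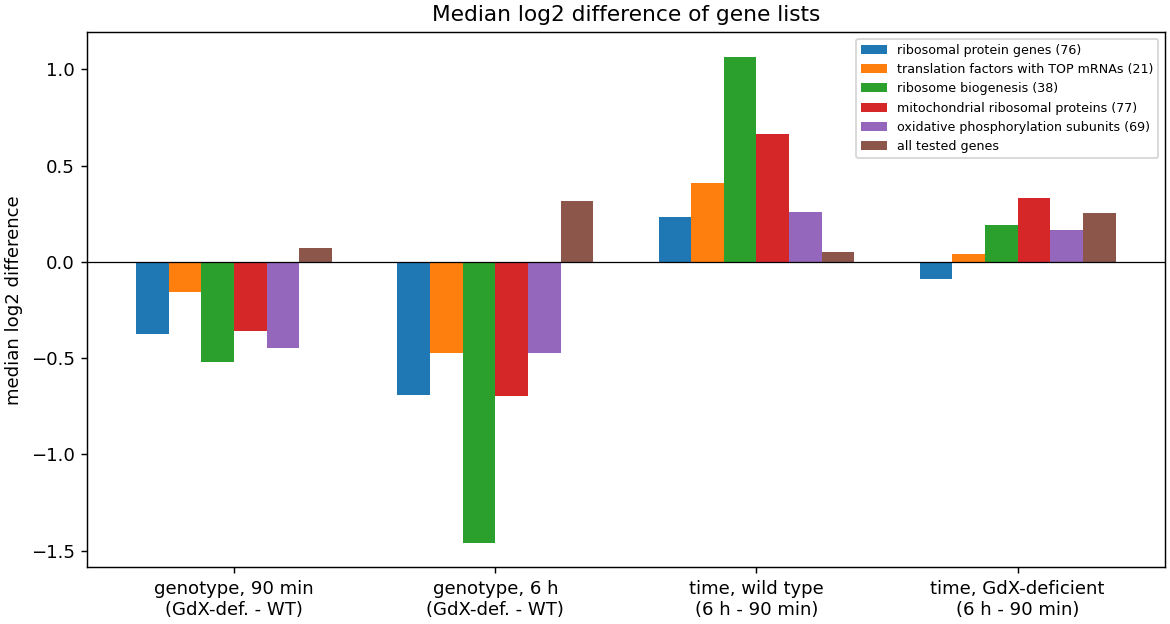
Median log2 difference (y axis) of the ribosomal protein genes, 4 other gene lists and all tested genes in 4 comparisons (x axis). Ribosome biogenesis genes reach 1.07 for time in wild type and -1.46 for genotype at 6 h, while the ribosomal protein genes stand at 0.23 and -0.69.

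The spleen's cell markers were present, and their summed levels varied among the libraries. The summed FPKM of 12 B cell markers, none at 0, was 2210 and 2190.2 in wild type at 90 min, 1901 and 3052 in the KO-labelled pair, 689 and 777 in wild type at 6 h and 2646 in the KO-labelled library at 6 h. T cell markers (12) stood at 568 to 614, 495 to 660, 279 to 289 and 540.4, and those of macrophages and monocytes (12) at 1281 to 1302, 966 to 1164, 704 to 847 and 1334, again with none at 0. For these 3 lists the wild-type pair at 6 h was the lowest and the KO-labelled library at 6 h lay near the 90 min levels. Neutrophil markers (12) ranged from 940 to 1387, 1291 to 5023, 1435 to 1642 and 2971, highest in the second KO-labelled library at 90 min. With time in wild type 6 of these neutrophil markers went down and 6 up, with a median log2 difference of -0.05, so the sum does not stand for all of them. Erythroid markers (11) summed to 600 and 684 FPKM in wild type against 1332 and 1137 in the KO-labelled pair at 90 min, and to 217 and 296 against 679 at 6 h, so that they were higher in KO-labelled libraries at both times. Stroma and endothelium markers (8, none at 0) summed to 145 and 111 FPKM in wild type against 68.1 and 67.0 in the KO-labelled pair at 90 min, and to 48.9 and 73.8 against 107 at 6 h, so that their order between the genotypes turned with time. The 9 markers of pancreas and fat summed to 59.8 and 48.4 against 26.8 and 25.4 at 90 min and to 25.4 and 12.9 against 9.74 at 6 h, with 2 to 5 at 0 in each library. Of the 2 that were tested, 1 had a difference below 0 and 1 above 0 at 90 min and at 6 h: Fabp4 was at -1.25 on the log2 scale at 90 min (adjusted p = 0.547 by limma) and Cela1 at 0.01 (0.989). The part of these cell types, of transcript length and of the first wild-type replicates in the genotype and time values of the ribosomal protein genes was not tested beyond the alternatives given beside them.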

How the data were processed

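The authors deposited 1 table of gene-level FPKM for 7 libraries; the submitters' processing notes name HISAT, HISAT2 2.0.4, Bowtie2, RSEM and the build GRCm38.p5, without their roles. The table holds no counts, so no count test was run. Values were analysed as log2(FPKM + 1) for the 11378 genes with a mean of at least 1 FPKM, with limma 3.58.1 in R 4.3.3 (empirical Bayes with a mean trend, Benjamini-Hochberg over all tested genes). Fold changes on this scale understate changes of low genes. Genotype at 90 min and time in wild type came from a fit of 4 groups, and the other 2 tests from additive fits. Nothing names the libraries as separate mice beyond the series' design text, and p-values measure the spread between these libraries. Transcript length and GC content came from GENCODE M21 transcripts (mean over those matched to a gene), promoter windows from RefSeq. Depth was estimated from FPKM steps, and counting error is not part of the values.

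Members named were fixed by role, by highest and lowest level, by the smallest p or the extreme difference in each comparison (up to 5 or 3 a side), and by the largest spread after the library median. Genes with shared copies, genes not overlapping between groups and Rpl15 were named after their values were seen. The members and lists were chosen with earlier results of these data known. A few genes are not reported singly here.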

Additional observations from a re-analysis of the deposited data

Results flagged for a closer look

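Rpl15, a large-subunit protein, went in opposite directions with time in the genotypes on the FPKM scale. In wild type it stood at 1143 and 1104 FPKM at 90 min and at 1496 and 1501 at 6 h, a log2 difference of 0.42. In KO-labelled mice it stood at 1047.4 and 1046.8 FPKM at 90 min and at 1042 at 6 h, a log2 difference of -0.00695. On the TPM scale this difference was 0.19, so that the opposite direction was not found there. All libraries of a genotype moved one way, but the KO-labelled change was small, and the interaction, -0.42, had an adjusted p of 0.859 by limma. It was the single member of 76 with this pattern.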

How the results depend on the processing

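The 30 results of members named for their p, each in its own comparison, were recomputed. Across 19 settings, 503 such differences kept their direction and their side of the threshold, 14 passed it newly and 14 changed sign. Of these, 0 calls were lost, since no member had passed. Members named only for their role or level are not in these counts. Members called for time in wild type numbered 1 after quantile normalization (Rps27, -0.83), 2 on the TPM scale, 3 with the length and GC trend removed, and 0 to 7 when 1 library was left out, the 7 without the second wild-type library at 6 h. On the TPM scale 1 member, Rps2, was called for time with genotype as a covariate, at 0.86. Members at least 2-fold lower at 6 h by genotype numbered 1 after quantile normalization, 1 on the TPM scale, 3 with length and GC removed, 0 without both first wild-type replicates (chosen after seeing the data), 0 as a contrast of the 4-group fit, and 0 to 44 with 1 library left out: 0 without the first and 44 without the second wild-type library at 6 h. The cause of these differences was not tested. Over all tested genes, calls for time in wild type numbered 1218, with 641 on the TPM scale, 635 without a filter, 2604 with length and GC removed and 450 to 1774 with 1 library left out. Calls for genotype at 90 min numbered 2, with 181 from only the 4 libraries compared and 2 to 183 with 1 library left out. Those for genotype with time as a covariate numbered 5, and 2 to 1674 with 1 library left out (1674 without the first KO-labelled library at 90 min), and those for time with genotype as a covariate 619, and 154 to 1204. No member was called in these settings for genotype at 90 min or for genotype with time as a covariate. For genotype at 6 h as a contrast of the 4-group fit, 4 members were called with length and GC removed, and 0 to 36 with 1 library left out (36 without the second wild-type library at 6 h), all lower. This contrast called 450 of all genes, with 1118 once length and GC were removed, 3035 without the second and 701 without the first wild-type library at 6 h.

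Median differences ranged, with 1 library left out, from -0.59 to -0.16 for genotype at 90 min, from -0.65 to -0.35 for genotype with time as a covariate, from -1.07 to -0.33 for genotype at 6 h, from -0.18 to 0.61 for time in wild type and from -0.13 to 0.26 for time with genotype as a covariate. Quantile normalization gave -0.12 for genotype with time as a covariate and -0.21 for genotype at 6 h. It moved the median of all tested genes at 6 h from 0.32 to -0.02, and the TPM scale moved it to 0.51. On the TPM scale the member median for time in KO-labelled mice was 0.11. Without globins in the FPKM sum, member shares were 31.1% and 24.97% in wild type and 24.5% and 24.9% in the KO-labelled pair at 90 min, and 22.1% in the KO-labelled library at 6 h.

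In the tested comparisons, signs of members named for their p in a comparison that changed when 1 library was left out were those of Rpl36 for genotype at 90 min (-0.13 to 0.14), Rps27 for genotype with time as a covariate (-0.12 to 0.17), Rpl37a (-0.99 to 0.33), Rps4x (-0.42 to 0.086) and Rpl39 (-0.53 to 0.25) for time in wild type, and Rpl37a (-0.61 to 0.054), Rpl39 (-0.36 to 0.022) and Rps21 (-0.59 to 0.17) for time with genotype as a covariate. Among members named for their role, signs at 90 min changed for Rpl13a (-0.58 to 0.0066), Rpl39 (-0.48 to 0.19), Rpl41 (-0.67 to 0.017) and Rps19 (-0.18 to 0.04). In both time comparisons that were tested they changed for all but Rplp0, Rpl3 and Rpl4, among them Rpl10 in wild type (-0.11 to 0.26). For genotype with time as a covariate none of the members named for their role changed sign. For genotype at 6 h, described without a test, Rpl39 went from -0.21 to 0.18 without the first wild-type library and Rps27 from 0.16 to -0.17 without the second.

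Libraries of different groups share a replicate number but no stated origin. Deviations of same-numbered libraries correlated at 0.77 between the wild-type groups, -0.12 between the genotypes at 90 min and 0.08 between the KO-labelled pair and wild type at 6 h. The replicate block gave 1 member called for time in wild type (Rps2, 0.98) and 2345 of all genes, 3 members and 2830 of all genes together with the length and GC trend removed, 0 members for the other tested comparisons, and -0.061 for Rps27 in genotype with time as a covariate. Exchanging the numbers of the KO-labelled pair gave 0 calls among members at 90 min.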
